A study of Homo sapiens with 12 samples.

Results

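The data described here are the genes of MOLM-13 cells whose response to quizartinib did or did not depend on the medium in which the cells were kept. The measure was the interaction of drug and medium, that is, the log2 fold change of quizartinib against vehicle in hBMSC-CM minus the same log2 fold change in RPMI. The members were all genes with a mean count and a mean CPM (the count scaled to the same library total) of at least 1 over the libraries, 12998 of the 57353 gene names of the table and of the 30572 names with a count, and all 12 libraries entered the comparison. No value of the interaction was used to choose them.

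MOLM-13 is an established human acute myeloid leukemia (AML) cell line that carries an internal tandem duplication of the receptor kinase FLT3 (FLT3-ITD), and quizartinib (AC220) is an inhibitor of that kinase. Wild-type MOLM-13 cells were kept for 15 hr in 1 of 4 conditions with 3 replicates each: vehicle (DMSO) or 3 nM quizartinib, in RPMI, the regular culture medium with serum, or in hBMSC-CM, RPMI mixed with filtered medium conditioned by HS-5, a stromal line from human bone marrow. No stromal cells were in the cultures, the leukemic cells came from 1 cell line, and the factors in the conditioned medium were not separated. RNA was selected on poly-A and sequenced, and reads per gene were counted.

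FLT3 signals through STAT5, through the RAS-MAPK cascade and through PI3K and mTOR, and FLT3-ITD keeps these routes active without ligand. Among their best known outputs are the STAT5 targets CISH, PIM1 and OSM, the MAPK feedback genes DUSP6 and SPRY, the transcription factor MYC, and through MYC and mTOR the genes that build ribosomes. In the marrow, stromal cells secrete cytokines that signal through other receptors to JAK and STAT proteins or to MAPK. An interaction of drug and medium shows which genes responded differently to the drug in stromal medium. It does not show which signal was behind the difference.

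The libraries held 19966546 to 31546104 counts. Levels of genes are given as CPM after TMM scaling, which further divides each library by a factor of 0.956 to 1.043. Within groups the log2 CPM of replicates correlated at 0.997 or more, and no pair of replicates agreed within sampling noise. The labels do not say that replicates were separate cultures, so the p-values measure the spread between these samples, which may be technical. The summed level of 12 myeloid markers was 1110 to 1149 CPM with vehicle and 1847 to 1873 CPM with quizartinib in RPMI, and 1241 to 1267 CPM and 2034 to 2184 CPM in hBMSC-CM. ANPEP and CD68, myeloid markers too, were at or near 0 in every group. Of 17 stromal markers, COL3A1, COL5A1, LUM, DCN, POSTN, THY1 and CXCL12 had no count in any library, which allows up to 0.0951 to 0.150 CPM before TMM scaling, and the summed level was 8.02 to 22.1 CPM over all libraries. Mitochondrially encoded genes held 0.458% to 1.10% of the counts, with 0.683% in replicate 1 of quizartinib in hBMSC-CM against 0.947% and 0.939% in its other replicates. CPM is a share of a library's counts, so fewer cells of a kind and less RNA per cell cannot be told apart.

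The quizartinib response differed between the media for 5873 of the 12998 genes (45.2%) at an adjusted p under 0.05, by the quasi-likelihood test of edgeR with p-values adjusted after Benjamini and Hochberg over all tested genes. The interaction was positive, the response in hBMSC-CM being the higher, for 3433 genes (26.4%) and negative for 2440 (18.8%). It reached 2-fold for 773 genes (5.95%), of which 642 (4.94%) were positive and 131 (1.01%) negative. The median standard error was 0.096 on the log2 scale over all genes, and the median size of the interaction was 0.25, so most interactions were small and many were still measurable. Of the positive interactions, 3134 belonged to genes that fell with quizartinib in RPMI and 88 to genes that rose there. Of the negative interactions, 2224 belonged to genes that rose in RPMI and 50 to genes that fell. Thus most called interactions ran against the RPMI response. The interaction and the RPMI response share the RPMI libraries, so this split is a description. In RPMI 10299 genes (79.2%) changed with quizartinib, 5174 (39.8%) upwards and 5125 (39.4%) downwards, and in hBMSC-CM 8722 (67.1%), 4358 (33.5%) upwards and 4364 (33.6%) downwards. A change of at least 2-fold was seen for 2784 genes (21.4%) in RPMI, 1241 raised (9.55%) and 1543 lowered (11.9%). In hBMSC-CM it was seen for 897 (6.9%), 634 raised (4.88%) and 263 lowered (2.02%).

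**Figure D1:**
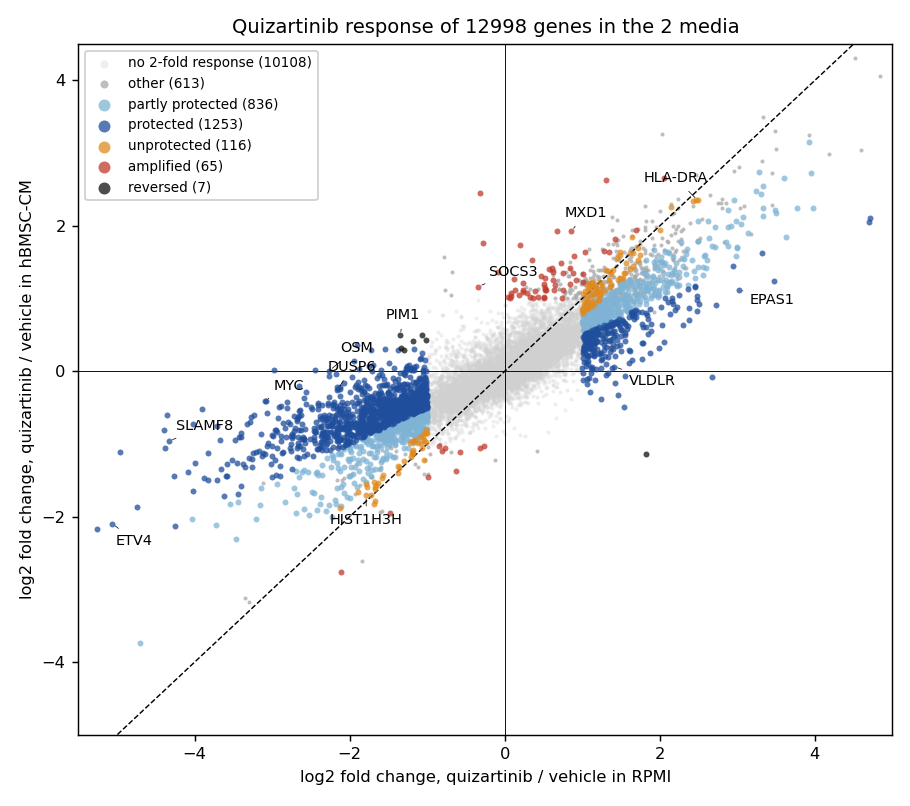
Each point is 1 of 12998 genes, with its log2 fold change of quizartinib against vehicle in RPMI on the x axis and in hBMSC-CM on the y axis, coloured by response class. The dashed line marks equal responses. Protected genes lie closer to the horizontal line at 0 than to the dashed line, unprotected genes near the dashed line, and PIM1 lies above 0 in hBMSC-CM although it fell in RPMI.

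The 2784 genes that changed at least 2-fold in RPMI were sorted by what was left of that change in hBMSC-CM. A response was called protected when the interaction was called against it and less than 0.5 of the log2 fold change was left, and partly protected when 0.5 or more was left. It was called unprotected when the interaction was not called, its 95% interval stayed within 0.5 log2 units of 0 and the gene changed in the same direction in hBMSC-CM. By these rules 1253 genes were protected, 836 partly protected and 116 unprotected, and 7 were reversed, with called changes in opposite directions. A further class held 65 amplified genes, 11 of which also changed at least 2-fold in RPMI. Amplified genes changed at least 2-fold in hBMSC-CM, with an interaction in the direction of that change and no called change in the opposite direction in RPMI. The remaining 613 genes with a 2-fold change in either medium fell under no rule, with a median level of 2.15 CPM. The limits cut through a continuous range. PDXK kept 0.4999 of its response and counted as protected, and BBS10 kept 0.50028 and counted as partly protected. POMP, at −1.0009 in RPMI, was just inside the 2-fold limit, and SUPT3H, at 0.99988, just outside it.

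Protection was uneven between lowered and raised genes. Of the 1543 genes that fell at least 2-fold in RPMI, 1003 (65.0%) were protected, against 250 (20.1%) of the 1241 that rose. Many raised genes were too low in count to be sorted, so the shares were also taken at a mean of at least 10 CPM. There 725 of 1133 lowered genes (64.0%) and 114 of 489 raised genes (23.3%) were protected. At this level a median of 0.44 of the log2 fold change (interquartile range 0.34 to 0.55) was left in hBMSC-CM for lowered genes, and 0.63 (0.51 to 0.75) for raised genes. Above 100 CPM, where counting error is small, the medians were 0.47 for 315 lowered and 0.64 for 59 raised genes. Genes were chosen by their RPMI response, which is also the denominator of this ratio, so the medians are descriptions. Under the other scalings between libraries they ranged from 0.388 to 0.450 for lowered genes and from 0.622 to 0.659 for raised genes.

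**Figure D2:**
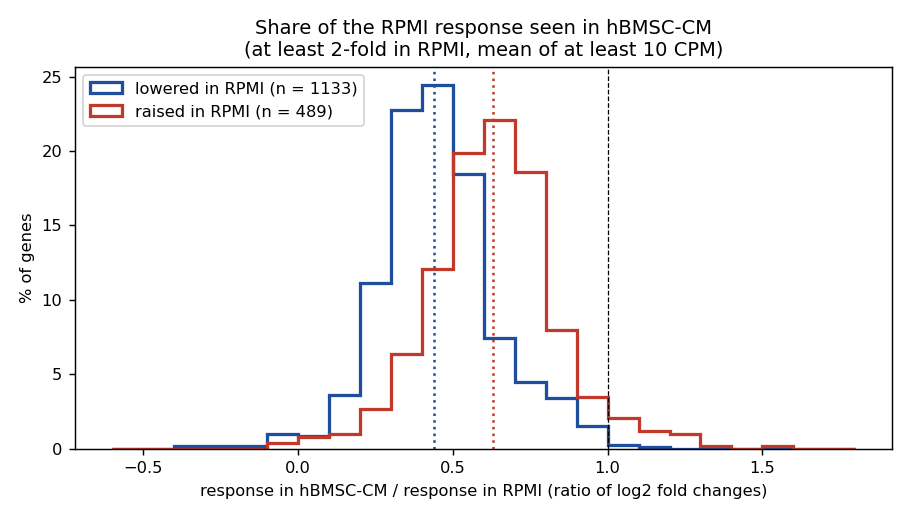
Histogram of the share of the RPMI response left in hBMSC-CM, as the ratio of the log2 fold changes on the x axis and the percentage of genes on the y axis, for genes with a change of at least 2-fold in RPMI and a mean of at least 10 CPM. Dotted lines are the medians, 0.44 for 1133 lowered genes and 0.63 for 489 raised genes, and the dashed line marks an equal response in both media.

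MYC, the transcription factor that drives ribosome building and cell growth, was among the most protected genes. In RPMI it stood at 440.0, 412 and 434 CPM with vehicle and at 47.04, 51.5 and 52.3 CPM with quizartinib. In hBMSC-CM it stood at 784, 773 and 800.3 CPM with vehicle and at 584, 583 and 615 CPM with quizartinib. Every quizartinib-treated library in hBMSC-CM thus held more MYC than every vehicle-treated library in RPMI. The response was −3.09 in RPMI and −0.40 in hBMSC-CM on the log2 scale. The interaction of 2.69 (standard error 0.0661) was called at an adjusted p of 4.79e-17 by the edgeR test, and it ranged from 2.62 to 2.76 over the alternatives. With vehicle alone, MYC was 0.87 higher on the log2 scale in the conditioned medium.

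The other genes with the largest positive interactions, at a mean of at least 10 CPM, were SLAMF8, HPDL, ETV4, BEND3, SLCO4A1, SLC29A1 and CA2. SLAMF8 (chr1:159826811-159837492, GRCh38), a surface receptor of myeloid cells, stood at 18.1, 13.6 and 18.2 CPM with vehicle and 0.579, 0.829 and 1.12 CPM with quizartinib in RPMI. In hBMSC-CM it stood at 23.2, 25.4 and 19.8 CPM with vehicle and 10.4, 11.9 and 13.1 CPM with quizartinib. Its interaction of 3.37 (standard error 0.285, edgeR adjusted p = 2.51e-10) was the largest at 10 CPM or more, and it was left with 51.4% of its vehicle level in hBMSC-CM and with 4.98% in RPMI. HPDL, a mitochondrial dioxygenase, was left with 6.14% of its vehicle level in RPMI and 60.2% in hBMSC-CM, an interaction of 3.29. The nucleoside transporter SLC29A1 was left with 5.19% and 36.98% (interaction 2.83), the organic anion transporter SLCO4A1 with 3.73% and 27.4% (2.88) and carbonic anhydrase CA2 with 6.25% and 41.6% (2.73). The transcriptional repressor BEND3 was left with 7.66% and 59.2% (2.95). For each of these genes all 3 quizartinib-treated libraries lay below the vehicle-treated ones in both media, so the protection was partial. Over all tested genes, the quizartinib and vehicle libraries did not overlap for 81.1% in RPMI and 68.3% in hBMSC-CM.

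MAPK feedback genes, which MAPK signaling induces and which in turn restrain it, formed with the PEA3 factors the list with the largest median interaction. Of 17 tested members of this list, 13 had a positive and 1 a negative interaction, beside 26.4% and 18.8% of all genes. Their median response was −2.15 in RPMI and −0.76 in hBMSC-CM, and 13 were protected. DUSP6 (chr12:89347235-89352501, GRCh38), the phosphatase that inactivates ERK, stood at 92.05, 93.1 and 92.1 CPM with vehicle and 18.8, 22.1 and 21.7 CPM with quizartinib in RPMI. In hBMSC-CM the levels were 83.5, 79.1 and 82.9 CPM with vehicle and 66.8, 70.6 and 70.2 CPM with quizartinib. It fell in both media, but to 22.6% of vehicle in RPMI and only to 84.4% in hBMSC-CM (interaction 1.90, standard error 0.0745, edgeR adjusted p = 1.74e-14). Unlike MYC, DUSP6 was not higher in hBMSC-CM with vehicle (log2 fold change −0.17). Of the 17 list members 7 were higher there with vehicle and 1 lower, beside 16.6% and 15.5% of all genes. The PEA3 factors ETV4 and ETV5, ETS factors downstream of ERK, were less completely protected. ETV4 changed by −5.06 in RPMI and −2.10 in hBMSC-CM (interaction 2.96), and ETV5 by −3.05 and −0.98 (interaction 2.07). RGS16, which shortens G protein signals, changed by −4.26 and −2.12 (interaction 2.14). The list member with a negative interaction was the kinase MAP2K3, which rose by 0.68 in RPMI.

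The median response of STAT5 targets to quizartinib was near 0 in hBMSC-CM, with single genes moving both ways. There 6 rose and 4 fell, beside 33.5% and 33.6% of all genes. In RPMI 3 rose and 10 fell, beside 39.8% and 39.4% of all genes. Of 15 tested members, 10 had a positive interaction and none a negative one, beside 26.4% and 18.8% of all genes, and the median response was −0.86 in RPMI and 0.01 in hBMSC-CM. In hBMSC-CM with vehicle 11 of the 15 were already higher than in RPMI, beside 16.6% of all genes. The cytokine oncostatin M, OSM, stood at 7.79, 7.61 and 7.55 CPM with vehicle and 1.54, 1.59 and 1.65 CPM with quizartinib in RPMI. In hBMSC-CM the levels were 32.4, 30.4 and 29.5 CPM with vehicle and 35.4, 28.2 and 29.00 CPM with quizartinib, and the drug and vehicle libraries overlapped. Its interaction was 2.27 (standard error 0.173, edgeR adjusted p = 2.07e-10), and its level with vehicle was 2.01 higher in hBMSC-CM. CDC25A, a phosphatase that starts S phase, was on this list too and behaved like the replication genes, with −3.59 in RPMI and −1.45 in hBMSC-CM.

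The reversed genes at a mean of at least 10 CPM were PIM1, CISH, TMCC1-AS1 and AP002761.4. PIM1 (chr6:37170152-37175428, GRCh38), a survival kinase, stood at 30.1, 33.01 and 29.2 CPM with vehicle and 10.6, 13.2 and 12.4 CPM with quizartinib in RPMI. In hBMSC-CM it held 112, 116 and 119 CPM with vehicle and 157, 160.0 and 172 CPM with quizartinib. It fell with the drug in RPMI in all 3 libraries and rose in all 3 in hBMSC-CM, from −1.35 to 0.50 (interaction 1.84, standard error 0.0916, edgeR adjusted p = 5.85e-13). CISH (chr3:50606489-50611774, GRCh38), a feedback inhibitor of cytokine receptors, went from 45.9, 44.4 and 48.6 CPM with vehicle to 18.7, 19.00 and 18.8 CPM with quizartinib in RPMI and from 94.4, 93.8 and 79.4 to 99.3, 114 and 114 CPM in hBMSC-CM. Its responses were −1.30 and 0.29 (interaction 1.58, edgeR adjusted p = 1.74e-11). With vehicle, PIM1 was 1.91 and CISH 0.95 higher in the conditioned medium, and with quizartinib the differences were 3.75 and 2.53. TMCC1-AS1 (−1.34 and 0.32) is an antisense gene and AP002761.4 (−1.19 and 0.42) a gene with no assigned name. Whether reads were counted by strand is not given in the sources used here, so reads of TMCC1-AS1 cannot be told from those of TMCC1. The other 3 reversed genes were TP63, VENTX and HK2P1, all under 10 CPM. The number of reversed genes moved between 5 and 13 with the filter, the scaling and the library left out.

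STAT proteins bind sites with the letters TTCNNNGAA, and the promoters of CISH and LRG1 are shown because the window before their start holds this motif. The sequences are from RefSeq (GRCh38.p14), 250 bases before the annotated start, 5′ to 3′ on the gene's strand, with the motif in capitals. The CISH window (chr3:50611775-50612024, minus strand) holds 4 matches, the last of which overlaps the ETS motif CCGGAAG, and that of LRG1 (chr19:4540037-4540286, minus strand) 1. A gene was shown only if the table held a single window for it, and these genes were picked after their values were seen.
CISH: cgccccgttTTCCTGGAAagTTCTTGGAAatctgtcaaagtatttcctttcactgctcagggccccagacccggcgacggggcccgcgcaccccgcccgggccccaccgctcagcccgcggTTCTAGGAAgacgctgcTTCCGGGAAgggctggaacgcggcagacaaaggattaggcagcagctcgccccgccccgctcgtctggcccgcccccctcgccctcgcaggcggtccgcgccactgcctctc
LRG1: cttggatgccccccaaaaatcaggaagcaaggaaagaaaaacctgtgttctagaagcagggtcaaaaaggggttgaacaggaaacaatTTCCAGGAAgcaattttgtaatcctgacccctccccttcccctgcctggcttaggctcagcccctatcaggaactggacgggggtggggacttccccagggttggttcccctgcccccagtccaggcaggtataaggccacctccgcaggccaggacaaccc
In the windows of 250 bases before to 50 after the start, searched on both strands, the motif stood in 9.38% of all 27305 gene symbols of the table. It stood in 2 of 21 matched genes of the list of JAK-STAT3 and cytokine receptor genes (9.52%), so the list as a whole was near that share. The table also holds genes that these cells do not express, so its shares are no background of expressed genes. The window of PIM1 held no match, which says only that these letters are not in it.

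Amplified responses were led by SOCS3 (chr17:78356778-78360077, GRCh38), the feedback inhibitor of STAT3 signaling. SOCS3 stood at 2.97, 3.79 and 2.72 CPM with vehicle and at 1.93, 3.00 and 2.53 CPM with quizartinib in RPMI, where the libraries overlapped. In hBMSC-CM it stood at 13.05, 12.4 and 15.3 CPM with vehicle and at 30.8, 28.04 and 32.4 CPM with quizartinib, so that it rose by 1.16 there (interaction 1.504, standard error 0.201, edgeR adjusted p = 2.67e-06). MXD1 (chr2:69897688-69942945, GRCh38), which pairs with MAX and opposes MYC, went from 18.1, 17.6 and 17.3 to 32.6, 31.9 and 31.5 CPM in RPMI and from 32.1, 34.5 and 33.5 to 126, 126 and 127 CPM in hBMSC-CM. It rose in both media, by 0.86 and 1.93 (interaction 1.07, edgeR adjusted p = 5.46e-11). LRG1 (chr19:4536402-4540036, GRCh38), a secreted acute phase glycoprotein, went from 11.9, 10.96 and 10.3 to 15.5, 15.3 and 15.3 CPM in RPMI and from 27.2, 28.6 and 28.9 to 74.4, 64.7 and 70.2 CPM in hBMSC-CM (responses 0.47 and 1.31, interaction 0.84). The cathepsin inhibitor CST7 rose by 1.09 in hBMSC-CM (interaction 0.85), the vesicle protein SYTL3 by 1.27 (0.76) and the MAPK scaffold KSR1 by 1.03 (0.70). With vehicle all 6 of these genes were already higher in hBMSC-CM, by 0.79 for KSR1 to 2.10 for SOCS3. Of the 55 genes amplified upwards, 26 had a mean of at least 10 CPM, and LYZ, the lysozyme gene, was the one closest to the 2-fold limit, at 1.01 in hBMSC-CM.

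Only 10 genes were amplified downwards, 5 of them at 10 CPM or more, and their interactions were smaller. IRF2BPL, a zinc finger protein, changed by −0.27 in RPMI and −1.03 in hBMSC-CM (interaction −0.77, standard error 0.110, edgeR adjusted p = 6.92e-06). PMAIP1 (NOXA), a BH3-only inducer of apoptosis, changed by −0.77 and −1.05 (interaction −0.29, edgeR adjusted p = 0.0122). HJURP, the chaperone of centromeric histone CENP-A, changed by −0.84 and −1.03 (interaction −0.19, edgeR adjusted p = 0.00945). The calls of PMAIP1 and HJURP were lost without a filter on low counts. The call of MNS1 (−0.29, edgeR adjusted p = 0.0487) was lost under 15 of 22 alternatives (−0.36 to −0.23), and that of RN7SL471P (−0.47, edgeR adjusted p = 0.0227), a pseudogene copy of the 7SL RNA whose reads may come from other copies, with the DESeq2 Wald test and without replicate 2 of quizartinib in hBMSC-CM, replicate 3 of vehicle in hBMSC-CM or replicate 3 of quizartinib in RPMI (−0.59 to −0.32). With vehicle the log2 difference of hBMSC-CM from RPMI was 0.69 for IRF2BPL and 0.38 for RN7SL471P. It was −0.31 for HJURP, −0.14 for MNS1 and −0.09 for PMAIP1. With quizartinib the differences of IRF2BPL (−0.08) and RN7SL471P (−0.09) were not called, so these 2 genes were not lower in hBMSC-CM under the drug.

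**Figure D3:**
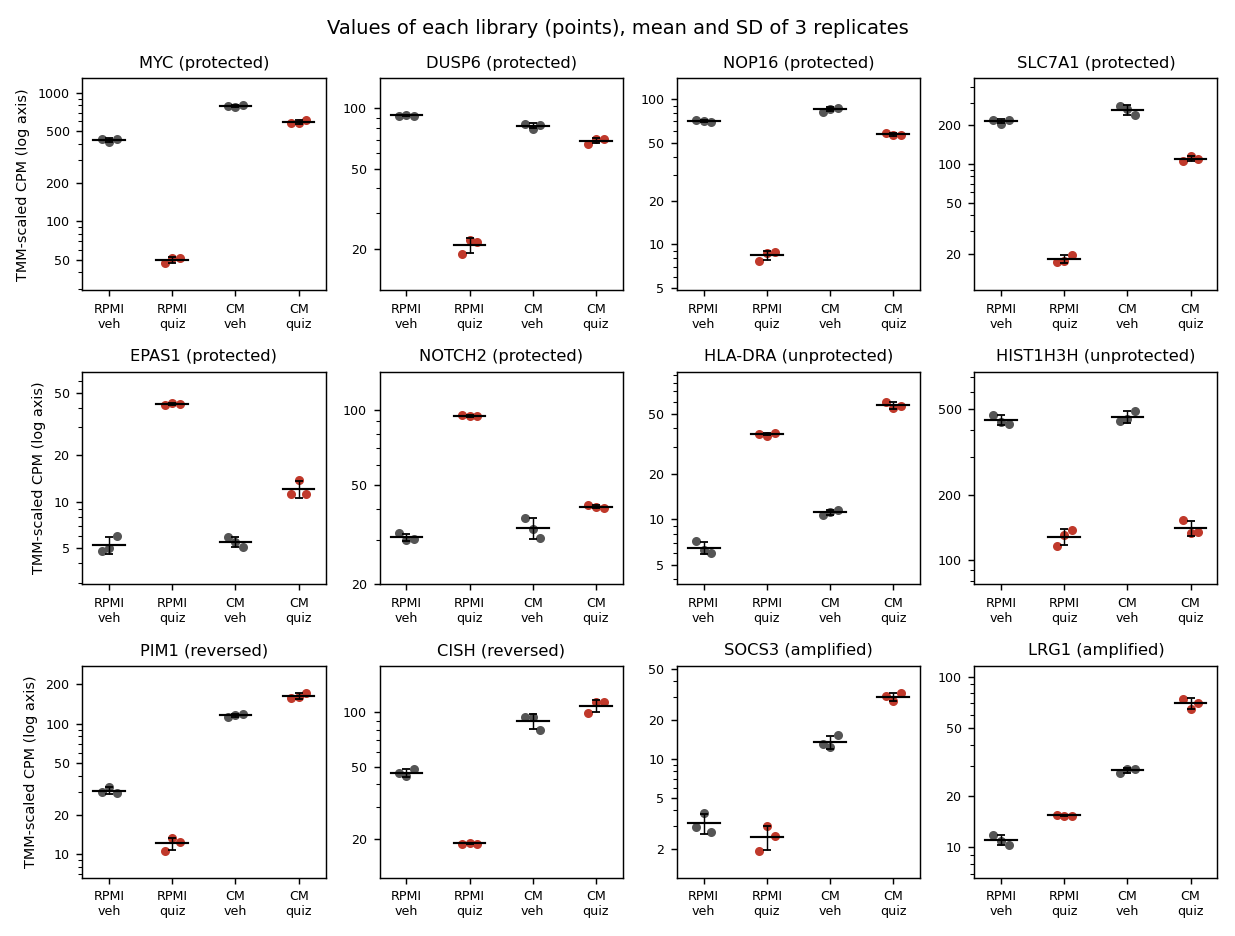
TMM-scaled CPM on a log axis for 12 genes, in vehicle (veh) and quizartinib (quiz) libraries in RPMI and hBMSC-CM (CM). Points are libraries, and bars are the mean and SD of 3 replicates. MYC, DUSP6, NOP16 and SLC7A1 fell far less in hBMSC-CM than in RPMI, EPAS1 and NOTCH2 rose less, HLA-DRA and HIST1H3H changed about equally, PIM1 and CISH rose in hBMSC-CM and fell in RPMI, LRG1 rose more in hBMSC-CM, and SOCS3 rose there and not in RPMI.

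Genes that build ribosomes in the nucleolus were the list with the most protected genes. Of 62 tested members, 59 had a positive and 1 a negative interaction, 60 fell in RPMI and 58 in hBMSC-CM, and 49 were protected. Over all genes 26.4% had a positive and 18.8% a negative interaction, and 39.4% fell in RPMI and 33.6% in hBMSC-CM. With vehicle 44 of the 62 were already higher in hBMSC-CM, beside 16.6% of all genes, and none was lower. The median response was −1.46 in RPMI and −0.55 in hBMSC-CM. NOP16 (chr5:176383946-176388927, GRCh38), a nucleolar protein of the large subunit, stood at 71.2, 70.8 and 68.9 CPM with vehicle and 7.65, 8.70 and 8.81 CPM with quizartinib in RPMI. In hBMSC-CM the levels were 81.9, 85.2 and 87.3 CPM with vehicle and 58.4, 56.7 and 56.2 CPM with quizartinib. It was left with 11.9% of vehicle in RPMI and 67.4% in hBMSC-CM (interaction 2.50, standard error 0.0791, edgeR adjusted p = 7.85e-16). The RNA helicase DDX21 went from 770.1, 757 and 758 to 118, 116 and 114 CPM in RPMI and from 933, 974 and 937 to 614, 622 and 611 CPM in hBMSC-CM (interaction 2.09). UTP6, a processome protein, was the exception with a negative interaction (−0.20), from responses of 0.11 and −0.09, a call lost without a filter on low counts and without replicate 3 of quizartinib in hBMSC-CM (−0.24 to −0.13 over the alternatives). In contrast, the 77 genes of cytosolic ribosomal proteins hardly moved. Their median response was 0.19 in RPMI and 0.06 in hBMSC-CM, and 4 had a positive and 4 a negative interaction. The positive ones included RPL17 (−1.49 and −0.30), whose reads can be shared with near-identical copies or a read-through gene and are uncertain, and the negative ones RPLP2 (interaction −0.26).

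The E-box CACGTG, to which MYC and MAX bind, stood in the windows of 25 of 55 matched ribosome biogenesis genes (45.5%) and in those of 8.77% of all gene symbols of the table. CCGGAAG, a motif of ETS factors, stood in 24 of the 55 (43.6%) and in 12.2% of all symbols. As said above, the symbols include genes that these cells do not express, so both shares are no background of expressed genes. UTP4, a processome protein, is shown as an example with its E-box in capitals (chr16:69132399-69132648, plus strand).
UTP4: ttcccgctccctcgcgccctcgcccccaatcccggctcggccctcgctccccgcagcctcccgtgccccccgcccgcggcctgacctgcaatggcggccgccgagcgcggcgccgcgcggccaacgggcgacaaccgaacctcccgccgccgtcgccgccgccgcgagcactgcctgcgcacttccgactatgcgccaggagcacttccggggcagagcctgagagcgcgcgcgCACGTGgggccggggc
The log2 response of UTP4 was −1.72 in RPMI and −0.77 in hBMSC-CM (interaction 0.94, standard error 0.139, edgeR adjusted p = 1.00e-05). A match describes the sequence and not binding. The promoter table matched 8998 of the tested genes (69.2%), under the 80% that was required, so no motif share is given for all tested genes or for the response classes.

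Among genes that supply and charge amino acids and that fold proteins, more had positive than negative interactions, beside 26.4% and 18.8% of all genes. SLC7A1, which carries arginine, went from 222, 207 and 219.5 to 17.1, 17.5 and 19.6 CPM in RPMI and from 286, 269.9 and 240.2 to 105, 115 and 109.8 CPM in hBMSC-CM (responses −3.59 and −1.27, interaction 2.31, edgeR adjusted p = 1.48e-14). The leucine transporter SLC7A5 changed by −3.40 and −1.58 (interaction 1.82). Of the 29 tested ATF4 and amino acid supply genes, 15 had a positive and 4 a negative interaction, with median responses of −1.04 and −0.76. Among the negative ones was SESN2, a stress-induced brake on mTORC1, which fell in hBMSC-CM (−0.61) and stood at −0.12 in RPMI. Of 20 tested tRNA synthetases, 16 had a positive and 1 a negative interaction. VARS was left with 24.3% of its vehicle level in RPMI and 60.8% in hBMSC-CM, while QARS rose by 0.33 in RPMI and had the negative interaction (−0.24). Of 15 chaperonins and related chaperones, 13 had a positive interaction. All 15 fell in both media, where 39.4% of all genes fell in RPMI and 33.6% in hBMSC-CM. HSPE1 was left with 22.6% and 53.8% of vehicle and the heat shock chaperone HSPA8 with 28.1% and 52.5%. With vehicle, 19 of the 29 ATF4 and amino acid supply genes were already higher in hBMSC-CM and 2 lower. Of the 20 tRNA synthetases 15 and of the 15 chaperonins 11 were higher with vehicle and none lower. Over all genes 16.6% were higher and 15.5% lower.

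DNA replication genes fell in both media with nearly all interactions positive, and mitosis genes fell in both media with more negative than positive interactions. Of 45 tested replication genes, all fell in both media, 43 had a positive and none a negative interaction, and 25 were protected and 17 partly protected. Over all genes 39.4% fell in RPMI and 33.6% in hBMSC-CM, and 26.4% had a positive and 18.8% a negative interaction. The median response was −2.11 in RPMI and −0.95 in hBMSC-CM. UNG, which removes uracil from DNA, went from 68.2, 68.1 and 66.8 to 5.99, 5.94 and 7.54 CPM in RPMI and from 60.96, 62.7 and 64.7 to 34.95, 32.2 and 32.8 CPM in hBMSC-CM (interaction 2.49, standard error 0.0972, edgeR adjusted p = 1.48e-14). Cyclin E2, CCNE2, changed by −3.83 and −1.50 (interaction 2.33). Of 46 mitosis and spindle genes, 40 fell in RPMI and 44 in hBMSC-CM, 6 had a positive and 17 a negative interaction, and none was protected. Their median response was −0.49 in RPMI and −0.66 in hBMSC-CM, and 30 were lower in hBMSC-CM with vehicle already, beside 15.5% of all genes. CDC25C, which starts mitosis, went from 22.1, 25.4 and 23.7 to 21.01, 21.8 and 21.03 CPM in RPMI and from 17.98, 19.1 and 19.7 to 12.7, 11.4 and 10.9 CPM in hBMSC-CM (interaction −0.53, edgeR adjusted p = 2.64e-04). CDC25B rose by 0.41 in RPMI and stood at −0.0035 in hBMSC-CM (−0.42). The mitosis genes with the largest positive interactions were WEE1 (−1.37 and −0.71), a kinase that holds cells back from mitosis, and MAD2L1 (−1.47 and −0.92), a spindle checkpoint protein. The number of mitosis genes with a negative interaction was 5 without a filter on low counts. No test compared the lists.

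**Figure D4:**
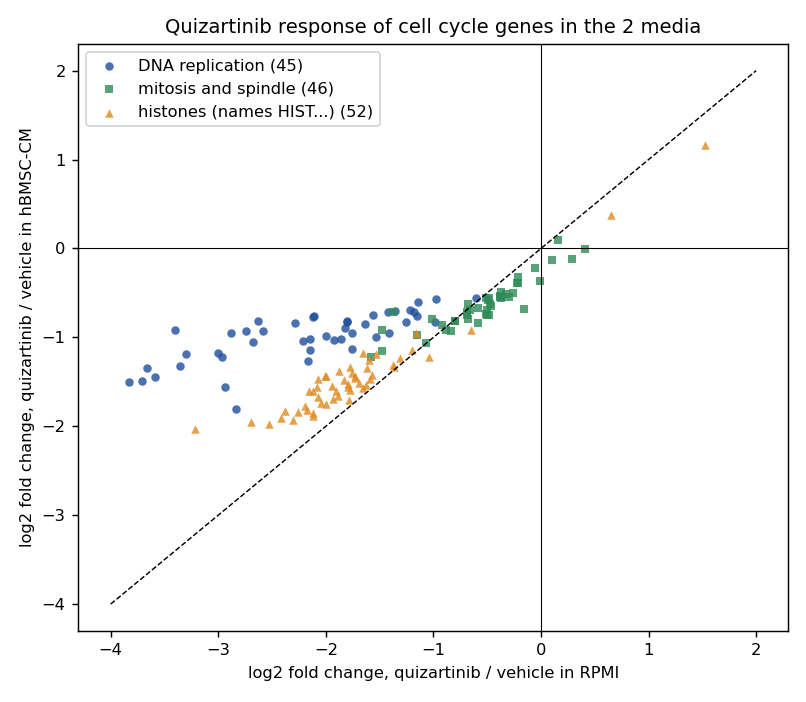
Log2 fold change of quizartinib against vehicle in RPMI (x axis) and hBMSC-CM (y axis) for 45 DNA replication genes, 46 mitosis and spindle genes and 52 histone genes. The dashed line marks equal responses. Replication genes lie above it, by up to 2.49, more mitosis genes below it than above it, and most histone genes, with a median of −1.81 in RPMI, above it by a median of 0.30.

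The letters TTCCCGC, a motif of E2F factors, which switch on replication genes at the entry into S phase, stood in the windows of 20 of 40 matched replication genes, of 6 of 37 matched mitosis genes (16.2%) and of 7.82% of all gene symbols. Here too the symbols include genes that these cells do not express. GINS2, a subunit of the replicative helicase, is shown with this motif, here on the opposite strand, in capitals (chr16:85688955-85689204, minus strand).
GINS2: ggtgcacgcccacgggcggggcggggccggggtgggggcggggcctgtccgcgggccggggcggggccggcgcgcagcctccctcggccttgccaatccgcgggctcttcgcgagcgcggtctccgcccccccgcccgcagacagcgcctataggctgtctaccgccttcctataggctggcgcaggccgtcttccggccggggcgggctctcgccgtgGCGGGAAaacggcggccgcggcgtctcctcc
GINS2 stood at 77.7, 75.9 and 79.3 CPM with vehicle and 7.96, 7.63 and 8.08 CPM with quizartinib in RPMI, and at 75.4, 81.7 and 76.7 CPM with vehicle and 34.7, 34.5 and 33.2 CPM with quizartinib in hBMSC-CM. It was left with 10.1% of vehicle in RPMI and 43.9% in hBMSC-CM (interaction 2.11, edgeR adjusted p = 1.05e-14).

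Histone genes made up much of the unprotected class among lowered genes. At 10 CPM or more, all 6 unprotected lowered genes with the largest RPMI response were histones, so the 52 tested genes with names that start with HIST were collected after this was seen. Of these 50 fell in RPMI and 50 in hBMSC-CM, beside 39.4% and 33.6% of all genes. A positive interaction was called for 31 and a negative one for none, beside 26.4% and 18.8% of all genes. None was protected, 31 were partly protected and 15 unprotected. The median response was −1.81 in RPMI and −1.53 in hBMSC-CM. HIST1H3H stood at 469, 435 and 427 CPM with vehicle and 117, 131 and 138 CPM with quizartinib in RPMI. In hBMSC-CM it held 440.0, 447 and 490.1 CPM with vehicle and 153, 134 and 135 CPM with quizartinib, and the media overlapped with and without the drug. Its interaction was 0.08 (95% interval −0.10 to 0.26, edgeR adjusted p = 0.469). HIST1H4B (−1.69 and −1.52), HIST2H2AA3 (−1.79 and −1.56), HIST1H2BF (−1.78 and −1.60), HIST1H2BL (−1.89 and −1.66) and HIST1H2AL (−2.12 and −1.89) had interactions of 0.17 to 0.23. Each of these 5 was called under 1 or more alternatives, so these interactions were small but are not shown to be 0. mRNAs of most of these histones end without a poly-A tail, and the libraries were made from poly-A-selected RNA, so their level is not that of all histone mRNA. Many of these genes are near-identical copies, so counts of single genes are uncertain.

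Among raised genes, 76 were unprotected, 57 of them at 10 CPM or more. HLA-DRA (chr6:32439878-32445046, GRCh38), the alpha chain of an MHC class II molecule, stood at 7.17, 6.24 and 6.03 CPM with vehicle and at 36.8, 35.7 and 37.2 CPM with quizartinib in RPMI. In hBMSC-CM it stood at 10.7, 11.1 and 11.5 CPM with vehicle and 59.7, 54.2 and 55.9 CPM with quizartinib. Its level was higher in the conditioned medium with and without the drug, and the responses were 2.49 and 2.35 (interaction −0.13, 95% interval −0.35 to 0.08, edgeR adjusted p = 0.3). MPEG1, a pore-forming protein of macrophages, went from 14.4, 15.3 and 14.8 to 83.1, 81.95 and 81.7 CPM in RPMI and from 14.4, 12.5 and 14.1 to 71.3, 66.4 and 72.8 CPM in hBMSC-CM (responses 2.47 and 2.36, 95% interval of the interaction −0.29 to 0.06). PRDM1 (BLIMP1), a transcriptional repressor of terminal differentiation, rose by 2.15 and 2.26 (95% interval −0.11 to 0.33). The membrane protein MS4A14 rose by 1.74 and 1.59, PKIB, an inhibitor of protein kinase A, by 1.72 and 1.69, and AL356489.2, a gene with no assigned name, by 1.72 and 1.53. None of these interactions was called under any alternative. The interval rule decided the count of unprotected genes: it was 116 with intervals within 0.5 log2 units and 433 within 1. MHC class II genes as a list were mixed. Of 13 tested, 12 rose in RPMI and 11 in hBMSC-CM, beside 39.8% and 33.5% of all genes. Their interactions were negative for 6 and positive for 1, beside 18.8% and 26.4% of all genes, and median responses were 2.01 and 1.59. CIITA, the factor that switches these genes on, rose by 3.31 and 2.44 (interaction −0.87), and the invariant chain CD74 by 1.13 and 0.59 (interaction −0.54).

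Genes that rose in RPMI and were protected in hBMSC-CM were fewer. EPAS1 (chr2:46293667-46386697, GRCh38), the hypoxia factor HIF-2-alpha, had the largest negative interaction at 10 CPM or more. It stood at 4.78, 5.03 and 6.03 CPM with vehicle and 41.8, 43.3 and 42.6 CPM with quizartinib in RPMI. In hBMSC-CM the levels were 5.92, 5.49 and 5.08 CPM with vehicle and 11.2, 13.8 and 11.2 CPM with quizartinib, so that the drug raised it in both media, by 3.02 and 1.12 (interaction −1.90, standard error 0.143, edgeR adjusted p = 5.01e-10). For other genes the increase was lost nearly whole. The receptor NOTCH2 went from 31.9, 29.9 and 30.3 to 95.2, 93.97 and 94.1 CPM in RPMI and from 36.8, 33.2 and 30.5 to 41.3, 40.7 and 40.3 CPM in hBMSC-CM (responses 1.62 and 0.28). The histone H3K27 demethylase KDM6B rose by 1.39 in RPMI and stood at 0.04 in hBMSC-CM, and the lipoprotein receptor VLDLR rose by 1.41 and stood at 0.06 (interactions −1.34 and −1.35). RPS6KA2, an ERK-activated kinase, changed by 1.78 and 0.38, TCP11L2 by 2.94 and 1.44, the Fc receptor-like FCRLA by 2.19 and 0.84, YPEL2 by 2.17 and 0.93, and TSC22D3 (GILZ), a leucine zipper protein induced by glucocorticoids, by 2.22 and 0.88. ABCA1, the cholesterol exporter, was a special case. It went from 2.83, 4.10 and 3.04 to 16.7, 15.96 and 14.5 CPM in RPMI and from 24.5, 22.4 and 22.4 to 46.4, 49.1 and 48.2 CPM in hBMSC-CM. The medium alone raised it by 2.80, more than the drug did in RPMI (2.25), and its level with both was the highest of the 4 groups although the interaction was −1.20.

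FLT3, the target of the drug, was itself such a gene. It stood at 208, 213 and 206 CPM with vehicle and 462, 445 and 447 CPM with quizartinib in RPMI, and at 110.0, 117 and 113 CPM with vehicle and 163, 157 and 150.5 CPM with quizartinib in hBMSC-CM. The responses were 1.11 and 0.47 (interaction −0.64, standard error 0.0589, edgeR adjusted p = 1.27e-08), and with vehicle the log2 difference of hBMSC-CM from RPMI was −0.89. Of 23 tested FOXO and quiescence genes, 21 rose in RPMI and 20 in hBMSC-CM, beside 39.8% and 33.5% of all genes. Of their interactions 18 were negative and 1 positive, beside 18.8% and 26.4% of all genes, with median responses of 1.21 and 0.52. BTG2, an antiproliferative protein, went from 25.3, 25.4 and 24.5 to 109, 111 and 117 CPM in RPMI and from 17.5, 16.8 and 17.04 to 33.8, 34.4 and 35.04 CPM in hBMSC-CM (interaction −1.16, edgeR adjusted p = 3.74e-11), and YPEL3 changed by 2.15 and 0.96. CDKN1A (p21), the inhibitor of cyclin-dependent kinases, had the positive interaction (0.35), at −0.03 in RPMI and 0.32 in hBMSC-CM. The FOXO motif GTAAACA stood in the windows of 5 of 23 genes of this list (21.7%) and of 4.19% of all gene symbols. The list was written as FOXO-regulated genes, so its share is no independent sign, and the symbols include genes that these cells do not express. BTG1, a relative of BTG2, is shown with the motif, on the opposite strand, in capitals (chr12:92145847-92146096, minus strand).
BTG1: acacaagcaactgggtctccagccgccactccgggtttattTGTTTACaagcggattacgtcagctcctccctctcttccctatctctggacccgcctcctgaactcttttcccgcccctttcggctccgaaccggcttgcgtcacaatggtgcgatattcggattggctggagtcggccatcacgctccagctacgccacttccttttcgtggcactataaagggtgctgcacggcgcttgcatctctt
BTG1 rose by 1.29 in RPMI and 0.59 in hBMSC-CM (interaction −0.70, edgeR adjusted p = 8.85e-07).

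Lysosome and interferon genes mostly rose in both media, with more negative than positive interactions. Over all genes 39.8% rose in RPMI and 33.5% in hBMSC-CM, and 18.8% had a negative and 26.4% a positive interaction. Of 41 lysosome and autophagy genes, 31 rose in RPMI and 29 in hBMSC-CM, and 21 had a negative and 1 a positive interaction. TFEB, the factor that switches on lysosomal genes, rose by 1.01 and 0.29 (interaction −0.72), the autophagy kinase ULK1 by 0.94 and 0.23 (−0.71), while ATG16L1 had the positive interaction (0.35). Of 30 tested interferon-induced genes, 25 rose in RPMI and 23 in hBMSC-CM, and 13 had a negative and 4 a positive interaction. OAS1 rose by 2.56 and 1.43 and IRF7 by 1.73 and 0.92, while BST2 (interaction 0.32) and DTX3L (0.25) had positive interactions. Of 16 tested BCL2 family genes, 3 had a positive and 5 a negative interaction (18.8% and 31.3%), not far from the 26.4% and 18.8% of all genes. BMF, a BH3-only inducer of apoptosis, went from 51.9, 55.3 and 51.7 to 437, 449 and 448 CPM in RPMI and from 32.01, 34.2 and 28.1 to 139, 129.6 and 141 CPM in hBMSC-CM (responses 3.07 and 2.12, interaction −0.95, edgeR adjusted p = 1.91e-09). BNIP3L rose by 1.56 and 0.92. BID changed by −1.55 and −0.52 and the survival gene BCL2 by −0.98 and −0.33, both with positive interactions. MCL1, the other survival gene named, had an interaction of 0.16 (edgeR adjusted p = 0.0197), a call that was lost without replicate 2 of quizartinib in hBMSC-CM, without replicate 2 or 3 of quizartinib in RPMI or without replicate 1 or 2 of vehicle in RPMI (interactions of 0.13 to 0.23 over all alternatives).

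Energy and lipid metabolism showed smaller interactions than ribosome building. Of 24 tested glycolysis genes, 15 had a positive and 1 a negative interaction, beside 26.4% and 18.8% of all genes, with median responses of −0.75 and −0.50. The glucose transporter SLC2A3 was left with 25.8% of vehicle in RPMI and 64.4% in hBMSC-CM, and lactate dehydrogenase LDHA with 29.2% and 59.95%. Of 77 nuclear genes of the respiratory chain, 25 had a positive and 3 a negative interaction, and the median responses were −0.29 and −0.18. Their positive share of 32.5% was not far above the 26.4% of all genes, but their negative share of 3.90% was below the 18.8%. In RPMI 51 of the 77 fell and in hBMSC-CM 44, beside 39.4% and 33.6% of all genes. Cytochrome c, CYCS, changed by −1.87 and −0.68 (interaction 1.19, edgeR adjusted p = 6.92e-12) and the ATP synthase subunit ATP5MC1 by −1.98 and −0.87, both protected. Of 24 cholesterol synthesis genes 15 had a positive and 1 a negative interaction, with DHCR7 at −1.60 and −0.74. Of 24 genes of the unfolded protein response 13 had a positive and 2 a negative interaction, with XBP1 at −2.07 and −0.79 and its activator ERN1 at 1.19 and 0.31. Of 31 proteasome genes 16 had a positive and none a negative interaction, with small medians of −0.53 and −0.33. Fatty acid synthase, FASN, on the LXR list, changed by −2.02 and −0.80 (interaction 1.22). With vehicle, 14 of the 24 glycolysis genes were already higher in hBMSC-CM and 1 lower. So were 9 cholesterol synthesis, 17 unfolded protein response and 10 proteasome genes higher, and none lower. Over all genes 16.6% were higher and 15.5% lower.

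The 13 subunits encoded in mitochondrial DNA followed another pattern. With vehicle all 13 were lower in the conditioned medium, beside 15.5% of all genes, with a median log2 difference of −0.58. With quizartinib 9 rose in RPMI and all 13 in hBMSC-CM, beside 39.8% and 33.5% of all genes. Of their interactions 8 were positive and none negative, beside 26.4% and 18.8% of all genes, with median responses of 0.37 and 0.74. MT-ND2 stood at 61.3, 84.2 and 75.3 CPM with vehicle and 88.01, 78.3 and 77.2 CPM with quizartinib in RPMI, and at 54.6, 33.3 and 39.3 CPM with vehicle and 73.9, 71.1 and 69.9 CPM with quizartinib in hBMSC-CM. Its interaction was 0.59 (standard error 0.166, edgeR adjusted p = 0.00608). The share of mitochondrial counts varied within groups, as given above for quizartinib in hBMSC-CM, and its part in the result was not tested. The number of positive interactions moved between 4 and 12 over the alternatives.

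Monocyte and granule genes mostly rose, and more of them had positive than negative interactions. Of 23 tested, 15 rose in RPMI and 18 in hBMSC-CM, beside 39.8% and 33.5% of all genes. Their interactions were positive for 13 and negative for 3, beside 26.4% and 18.8% of all genes. With vehicle 17 were higher in hBMSC-CM, beside 16.6% of all genes. S100A9, a calcium-binding protein of granulocytes and monocytes, went from 4.68, 5.50 and 4.01 to 3.44, 2.83 and 3.41 CPM in RPMI and from 22.3, 25.3 and 26.96 to 43.6, 41.1 and 40.4 CPM in hBMSC-CM (responses −0.57 and 0.75, interaction 1.33, edgeR adjusted p = 5.21e-07). The integrin ITGAM (CD11b), named after its values were seen, went from 23.5, 21.7 and 22.5 to 10.5, 11.3 and 11.8 CPM in RPMI and from 21.9, 19.2 and 23.1 to 22.4, 18.6 and 23.4 CPM in hBMSC-CM (interaction 1.01). The receptor CSF1R rose by 2.01 and 1.51 and the costimulatory CD86 by 1.37 and 1.06, with negative interactions. The call of CD86 was lost without a filter on low counts. Thus S100A9 and ITGAM fell in RPMI and were held or raised in hBMSC-CM, while CSF1R and CD86 rose in both media.

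Of the remaining lists, the ATM and DNA damage checkpoint genes had more positive than negative interactions, and the others had similar numbers of both. Over all genes 26.4% were positive and 18.8% negative. Of 10 tested genes of the MYC and MAX network, 2 had a positive and 4 a negative interaction, and the partners of MAX that oppose MYC moved apart. MXD1 was amplified, as given above, MXD4 rose by 2.25 and 1.19 (interaction −1.06), and MXD3 changed by 0.33 and −0.24. Of 27 TNF and NF-kB genes, 9 were positive and 8 negative. The NF-kB inhibitor TNFAIP3 changed by −3.44 and −1.80 and IER3 by −1.90 and −0.77, while NFKB2 (−0.63) and TNFAIP2 (−0.64) had negative interactions. Of 23 JAK-STAT3 and cytokine receptor genes, 6 were positive and 5 negative, the latter with the receptor chains IL3RA (−0.50) and CSF2RA (−0.48), whose increases with quizartinib were weaker in hBMSC-CM. Of 20 myeloid transcription factors 6 were positive, with CEBPD (0.62) and ID2 (0.55) leading, and 4 negative, with KMT2A (−0.49) and SPI1 (−0.31), whose call was lost without replicate 1 of vehicle in hBMSC-CM (−0.39 to −0.22 over the alternatives). Of 12 LXR genes 3 were positive and 2 negative, with SCD at −1.21 and −0.53 and MYLIP at 1.28 and 0.88. Of 25 ATM and DNA damage checkpoint genes 15 were positive and 5 negative, with a median interaction of 0.31, and the checkpoint kinase CHEK1 changed by −2.07 and −0.91 (interaction 1.16). ATM itself had an interaction of 0.17 (edgeR adjusted p = 0.0365), a call lost under 12 of 22 alternatives, 8 of which left out replicate 2 or 3 of a group (0.12 to 0.24). Of 31 mTOR components and regulators 6 were positive, with EIF4EBP1 (−2.003 and −1.04), a repressor of translation initiation, and the initiation factor EIF4G1 (−1.56 and −0.62), and 9 negative, with FLCN (−0.50). The interaction of MTOR was 0.05 (95% interval −0.08 to 0.18, edgeR adjusted p = 0.524).

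**Figure D5:**
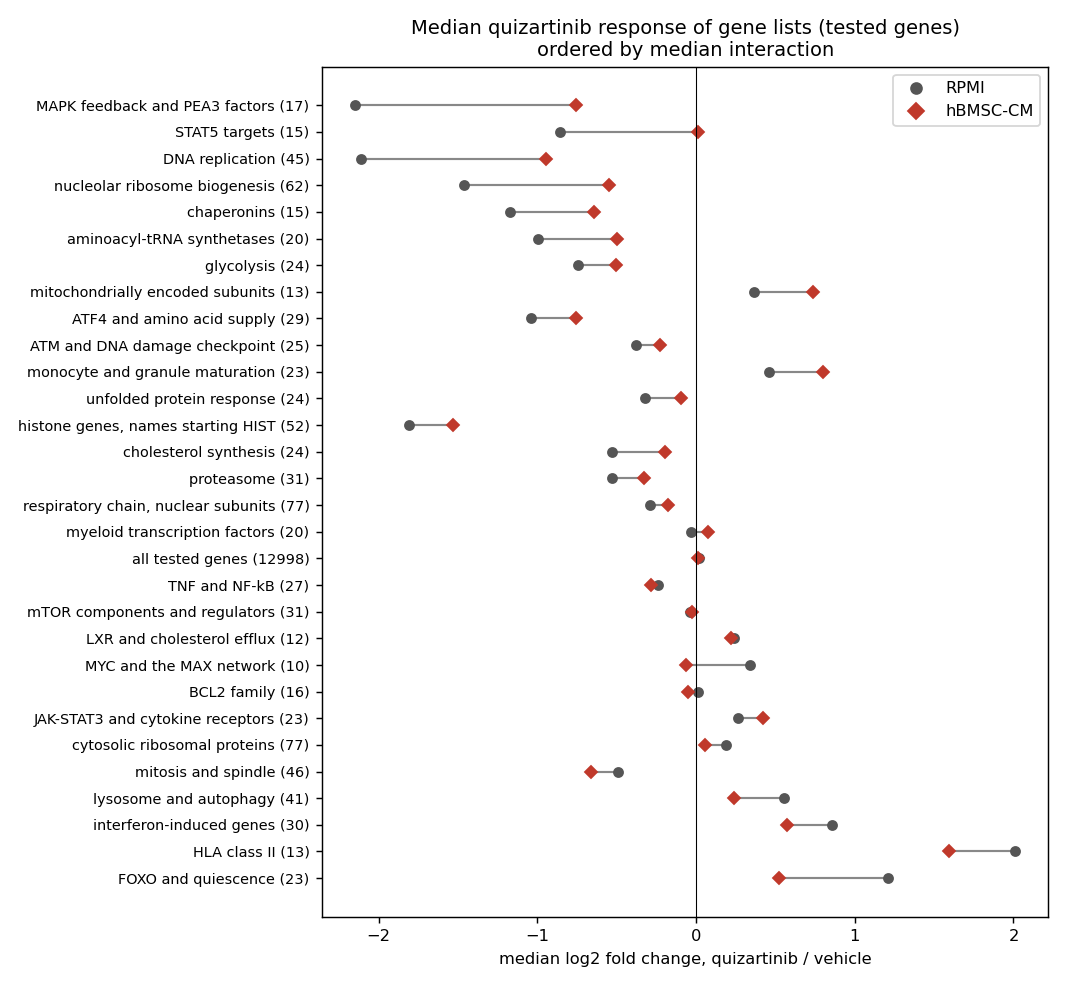
Median log2 fold change of quizartinib against vehicle in RPMI (circles) and in hBMSC-CM (diamonds) over the tested genes of each list, with the number of genes in parentheses, ordered by the median interaction. Lists of MAPK feedback, STAT5, replication and ribosome biogenesis genes lie furthest to the right of their RPMI medians in hBMSC-CM, and FOXO and quiescence genes furthest to the left.

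The level before treatment differed as well for part of these genes. Of the 5873 genes with a called interaction, 2315 differed between the media with vehicle, beside 32.1% of all genes, and in 1733 of these the difference had the sign of the interaction. Among protected lowered genes, 498 of 1003 differed with vehicle and 441 of them were higher in hBMSC-CM. Since the vehicle libraries in hBMSC-CM enter both differences, this is a description. On the linear scale, as a difference of differences of mean CPM, 54 of the 5873 interactions had the opposite sign.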

How the data were processed

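Gene expression was measured by RNA sequencing of poly-A-selected RNA in 12 libraries, 3 in each of 4 groups. The authors trimmed adapters with BBDuk, used STAR 2.6.0a to align reads to hg38 and to count them by gene, and they added the counts of gene identifiers that share a name. The deposited values are these raw counts, neither scaled nor filtered, with totals of 19966546 to 31546104. A count of 0 allows up to 3 counts, or 0.0951 to 0.150 CPM. This floor covers counting error only, since reads were not marked by molecule. Whether counting used the strand is not given in the sources used here.

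Groups were taken from the sample labels. Genes with a mean count and a mean CPM of at least 1 were scaled by TMM and fitted by the quasi-likelihood method of edgeR 4.0.16 (R 4.3.3), with 1 mean per group over all 12 libraries and two-sided tests at an adjusted p of 0.05 after Benjamini and Hochberg. Log2 fold changes, standard errors and 95% intervals come from that fit. A permutation test of 3 against 3 libraries cannot go below p = 0.1 and was not used. The method was tested on simulated counts of 12998 genes: it recovered 50 of 67 interactions of 1.5-fold, 59 of 67 of 2-fold and 66 of 66 of 3-fold, with 8 false calls. Far fewer genes had an interaction in the simulation than were called in the data, and their directions were drawn at random. The number of false calls therefore need not carry over to the data. Replicate numbers did not pair the libraries: 1 of 18 same-numbered pairs correlated at over 0.1. Some items are not reported here. The members, gene lists and tests were chosen with earlier results of these data known.

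Genes whose mean reached 10 CPM were named by rule: the 8 largest called interactions in each direction, up to 6 genes of each class and direction, the 2 largest called interactions in each direction of each list, and FLT3, MYC, MCL1, DUSP6, ATM and MTOR. UTP4, GINS2, BTG1 and ITGAM, the 3 reversed genes under 10 CPM, the genes at the limits of the classes, and the histone list were added after their values were seen. Alternatives were other scalings, filters, thresholds and tests (DESeq2 1.42.0, limma 3.58.1), a replicate block and leaving out each library. Promoter sequences came from RefSeq (GRCh38.p14) and gene positions from a GENCODE annotation of GRCh38.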

Additional observations from a re-analysis of the deposited data

Results flagged for a closer look

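The response to quizartinib differed between the media for 5873 genes by the interaction test. Among them, 4 genes whose mean reached 10 CPM changed at least 2-fold in RPMI and significantly in the opposite direction in hBMSC-CM, and each of these differences was tested by the interaction. PIM1 had an interaction of 1.84, TMCC1-AS1 of 1.65, AP002761.4 of 1.61 and CISH of 1.58 on the log2 scale, and all 4 fell in RPMI and rose in hBMSC-CM. Each group held 3 libraries, too few for a check of single libraries that stand apart.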

How the results depend on the processing

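The count of called interactions was 5405 to 5986 with 0.05 as threshold under the other scalings, low-count filters, tests and left-out libraries, apart from 5023 at a mean of at least 10 CPM, and 4280 at an adjusted p under 0.01. Other values under these alternatives were the following. At an adjusted p under 0.01, 1581 interactions were negative and 42 genes were amplified. When the model was fitted again to genes whose mean reached 10 CPM alone, and not counted within the full fit as in the report, 377 positive and 33 negative interactions reached 2-fold, 130 raised genes were protected, 33 genes were amplified, and lowered genes kept a median of 0.419 of their response. Without a filter, 209 negative interactions reached 2-fold, 13 genes were reversed and 70.6% of called interactions were positive, against 58.5%. With filterByExpr the 2-fold negative interactions were 212 and the reversed genes 13. Scaling by library size alone gave 11 reversed genes and a median of 0.388, and upper-quartile factors gave 0.407. With a 1.5-fold limit for a response, 1567 lowered and 635 raised genes were protected, 1480 partly protected, 585 unprotected, 38 reversed and 162 amplified. With an interval of 1 log2 unit, 433 genes were unprotected.

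Leaving out 1 library gave 5405 to 5879 called interactions, 5 to 8 reversed and 57 to 75 amplified genes. Replicate numbers did not pair the libraries (correlations of −0.297 to 0.138, and 1 of 12 libraries correlated best with its own number), and with a replicate block 5671 interactions were called, a change within 1.5 times. For the 138 named genes, 2968 of 3036 results under alternatives kept their side of the threshold, 51 lost and 17 gained a call. Of the called interactions 0 changed direction. Those of PKIB (−0.11 to 0.04) and HIST1H3H (−0.0005 to 0.15), not called, changed sign under some alternatives. The alternatives for list counts were added after the data were seen. Over them the mitosis genes with a negative interaction numbered 5 to 20, ribosomal protein genes with a negative one 2 to 22, MAPK feedback genes with a positive one 8 to 13 and histone genes with a positive one 21 to 39. Where calls moved, the cause was not tested. Interactions under about 0.135 on the log2 scale were not called at this depth.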
